A study of Brassica oleracea var. italica with 48 samples.

Results

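Roots and leaves of broccoli plants that kept their potassium supply were compared, with 12 root libraries set against 12 leaf libraries. These 24 are the control libraries among the 48 of the study, chosen by their tissue and treatment labels and by no measured value. The plants were wild type Brassica oleracea var. italica, grown for 6 days on MS plates and then for 7 days in hydroponic medium holding 2 mM K2SO4, with 16 h of light and 8 h of dark. At that point some plants were moved to medium free of potassium, the starved plants, and the controls were not. Roots and leaves of both treatments were sampled on days 1, 3 and 6, with 4 libraries lettered a to d in each group. All plants carried the same genotype, so the groups used here are root control and leaf control of each day and, as a second set of libraries, root starved and leaf starved of each day. Nothing in the labels states that the 4 libraries of a group came from separate plants, so p-values measure the spread between these libraries, which may be technical.

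Roots anchor the plant, take up water and mineral ions such as potassium, and load them into the xylem for transport to the shoot. Leaves carry out photosynthesis, and in green tissue a small set of nuclear genes for chloroplast proteins usually contributes a large part of the messenger RNA. Levels are given as TPM, a unit of relative transcript abundance, which divides the reads of each feature by its length and scales each library to the same total. A TPM value is therefore a share, and in bulk tissue fewer cells of a type and less RNA per cell cannot be told apart. The table lists 59225 features with Bo identifiers. Of these, 30394 reached 1 TPM in at least 4 of the 24 control libraries and were tested, while 27318 reached 1 TPM in none of the 24 and 17150 reached it in all 24. Just inside this limit were 321 features at 1 TPM or more in exactly 4 libraries, and just outside it 364 in exactly 3. The identifiers matched 0 of the 53125 entries of the gene table used here, so features are named by identifier alone, and markers of root, green tissue and other cell types were not analysed here.

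The control libraries held 17804766 to 20160248 reads and the starved libraries 13819069 to 20104454, recovered as whole numbers from the steps of the TPM values. On the first principal component of the 24 control libraries, which held 91.3% of the variance, all root libraries lay on one side and all leaf libraries on the other. The second component (3.57%) set apart 5 libraries from the others of their tissue, which were root a of day 1, root a and c of day 6, leaf b of day 1 and leaf a of day 3. In these 5 the Spearman rho between coding length and deviation from the tissue mean was -0.539 to -0.357. The part of this difference in the results was not tested, and counts without these libraries stand beside the main results. Within a group of 4 the median SD of a feature was 0.146 to 0.308 on the log2(TPM + 1) scale.

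Leaf RNA was concentrated in far fewer features than root RNA. The number of most abundant features that together held 50% of all TPM was 989 at its lowest, 1518 at its median and 1631 at its highest in root libraries, against 130, 246 and 315 in leaf libraries. The single most abundant feature held 0.685 to 1.93% of TPM in root libraries and 4.79 to 7.02% in leaf libraries. The 100 most abundant held 13.2 to 17.9% in root libraries and 37.2 to 46.8% in leaf libraries. Without the 5 libraries that stood apart, 50% of TPM lay in 1445 to 1631 features of root libraries and in 205 to 315 of leaf libraries. The tissues did not overlap in any of these measures, and the lowest leaf share of the 100 was above the highest root share. With TPM not rescaled, Bo features at 1 TPM or more numbered 25817 to 27932 in root libraries and 21165 to 23627 in leaf libraries. Each of these differences had a permutation p of 2e-05, the smallest that 100000 resamples can give in a two-sided test, and an adjusted p of 2e-05 over the 7 library measures compared. Within each day alone, with 4 root and 4 leaf libraries, each gave an exact permutation p of 0.0286, the smallest that the design allows.

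**Figure D1:**
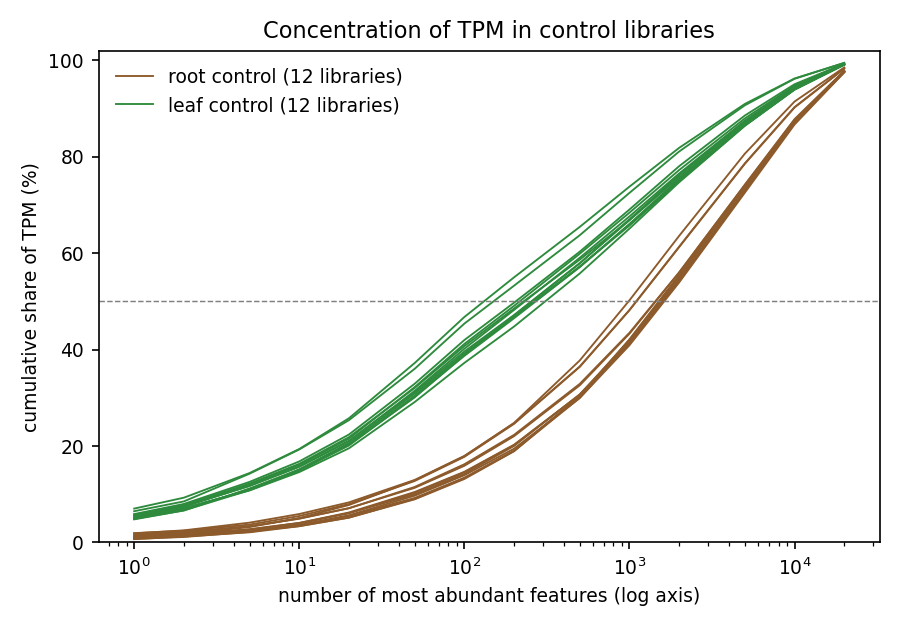
Cumulative share of TPM (%) against the number of most abundant features on a log axis, with one line for each of 12 root control libraries (brown) and 12 leaf control libraries (green). The dashed line at 50% is crossed between 989 and 1631 features in root libraries and between 130 and 315 in leaf libraries.

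The most abundant features of the tissues were different ones. Of the 10 features of highest mean TPM in root and the 10 in leaf, 0 were shared, of the 100 and 100 1 was shared, and of the 1000 and 1000 361 were shared, or 36.1% of each list. The 10 leading root features had means of 2702 to 12234 TPM in root libraries and of 0.433 to 211 TPM in leaf libraries. The 10 leading leaf features had means of 3.24 to 319 TPM in root libraries and of 6816 to 54939 TPM in leaf libraries. The leading root feature was Bo2g055670, with 6852 TPM at its lowest, 11278 at its median and 19305 at its highest in root libraries, against 0, 0.532 and 9.33 TPM in leaf libraries. The leading leaf feature was Bo4g137200, with 16.2, 55.0 and 98.8 TPM in root libraries, against 47861, 53377 and 70208 TPM in leaf libraries. This 1 feature thus stood above the highest level of any root feature in each of the 12 leaf libraries. Behind them in mean level came Bo8g112960 in root, with 3013 to 5974 TPM in root libraries and 5.55 to 28.7 TPM in leaf libraries, and Bo3g146480 in leaf, with 5.63 to 41.1 TPM in root libraries and 17334 to 22627 TPM in leaf libraries.

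Most features differed between the tissues. With day as a block, limma called 27595 of the 30394 features (90.8%) at an adjusted p under 0.05. Of all tested features, 21690 were called higher in root (71.4%) and 5905 lower in root (19.4%). The filter also let in features detected in 1 tissue alone, which favours a call. Among the 21907 at 1 TPM or more in at least 4 libraries of both tissues, 88.1% were called. The difference is called the gap here, the mean of log2(TPM + 1) in root minus that in leaf, and its median over all tested features was 0.93. Because TPM are shares, this balance rests on the scaling. After rescaling the libraries by medians of ratios over the 25223 features above 0 in every one of them, which moved leaf against root by 1.05 on the log2 scale, the median gap was 0.12, with 14125 features (46.5%) called higher and 11440 (37.6%) called lower in root. Of the 21690 features higher in root as deposited, 14125 stayed higher after rescaling, 4637 were no longer called and 2928 became lower in root. All 5905 features lower in root as deposited stayed lower after rescaling, and 2607 that had not been called joined them. Without the 5 libraries that stood apart, 28259 features were called as deposited, 22201 higher and 6058 lower in root.

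**Figure D2:**
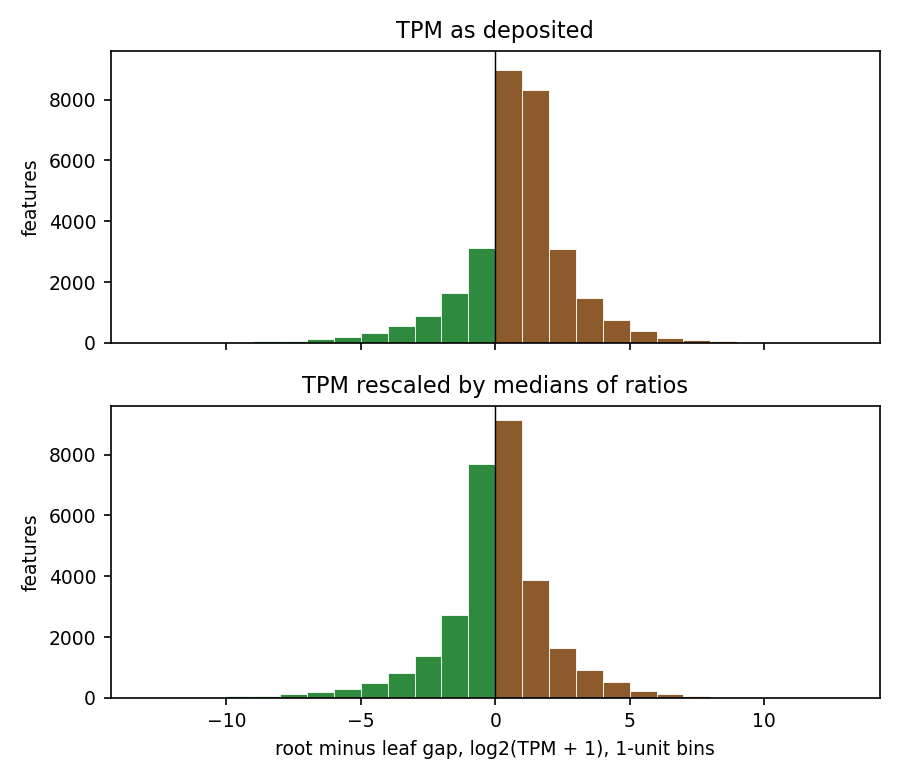
Number of tested features in each 1-unit bin of the root minus leaf gap on the log2(TPM + 1) scale, with TPM as deposited (above) and rescaled by medians of ratios (below), brown for higher in root and green for lower in root. The median gap is 0.93 above and 0.12 below, and the tails on both sides remain after rescaling.

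For 14329 features (47.1%) all 12 root libraries lay above all 12 leaf libraries, and for 3856 (12.7%) all root libraries lay below. A gap of at least 1 was called for 14381 features higher in root (47.3%) and one of at most -1 for 3918 lower in root (12.9%). After rescaling these were 7384 (24.3%) and 6168 (20.3%). A gap of at least 3, or 8-fold, was called for 2959 features higher in root (9.74%) and a gap of at most -3 for 1399 features lower in root (4.6%). At 5 or more on the same scale the counts were 716 higher (2.36%) and 522 lower (1.72%). Rescaling turned the last 2 balances round, to 1858 higher (6.11%) and 2059 lower (6.77%) at 3, and to 442 (1.45%) and 764 (2.51%) at 5. The majority for root at large gaps thus held for TPM as deposited and not after rescaling.

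The features with large gaps carried unlike parts of the 2 transcriptomes. The 2959 features at least 8-fold higher in root summed to 26.1 to 32.1% of TPM in root libraries and to 0.682 to 1.104% in leaf libraries. The 1399 at least 8-fold lower in root summed to 0.538 to 0.765% in root libraries and to 55.8 to 64.08% in leaf libraries. These sums describe features chosen for their gap. Of the root-high class 66.2% had a mean under 1 TPM in leaf, and of the leaf-high class 46.2% had a mean under 1 TPM in root. Over all features tested these shares were 23.7% in leaf and 9.01% in root, and the choice by gap itself favours low values in the other tissue. The median level was 33.1 TPM in root and 0.311 TPM in leaf for the root-high class, and 1.26 TPM in root and 71.5 TPM in leaf for the leaf-high class.

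By breadth of detection, 21907 features reached 1 TPM in at least 4 libraries of both tissues, 6405 in root alone, 2001 in leaf alone and 81 in neither tissue taken by itself. The limit of 1 TPM was not rescaled, so these numbers are those of TPM as deposited. Passing the filter through 1 tissue favours a call toward that tissue, so no count of those calls is given. Among the 21907 detected in both tissues, 15352 were higher and 3956 lower in root as deposited, with a median gap of 0.83. After rescaling these were 8311 higher and 9312 lower, with a median gap of -0.06. In shared features, too, the direction of the balance was that of the scaling.

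The largest gaps ran to more than 11 on the log2 scale and did not turn with any setting tried. Bo2g055670, given above, had a gap of 12.63 (SE 0.27, limma adjusted p = 7.96e-24). Bo4g194460 had 2142 TPM at its lowest, 3873 at its median and 4784 at its highest in root libraries, against 0, 0.206 and 4.83 TPM in leaf libraries, a gap of 11.25 (SE 0.23, limma adjusted p = 2.19e-24). The lowest root value was 735 times the highest leaf value for Bo2g055670 and 443 times for Bo4g194460, and the highest leaf value of both was that of library d of day 3.

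On the leaf side, Bo6g059930 had 0.162, 2.35 and 10.27 TPM in root libraries, against 10693, 12714 and 15625 TPM in leaf libraries, a gap of -11.86 (SE 0.24, limma adjusted p = 2.28e-24). Bo4g144000 had 1.55, 4.85 and 16.8 TPM in root libraries, against 15117, 17237 and 21230 TPM in leaf libraries, a gap of -11.58 (SE 0.20, limma adjusted p = 7.12e-26). In these leaf-high features no root library was listed at 0. The same 4 features were the ones of largest gap on days 3 and 6, and on day 1 Bo4g137150 took the place of Bo4g144000 with a gap of -11.72 (SE 0.31, limma adjusted p = 6.12e-20). Rescaling kept each of the 4 all-days calls and directions, for example with a gap of 11.93 for Bo2g055670.

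**Figure D3:**
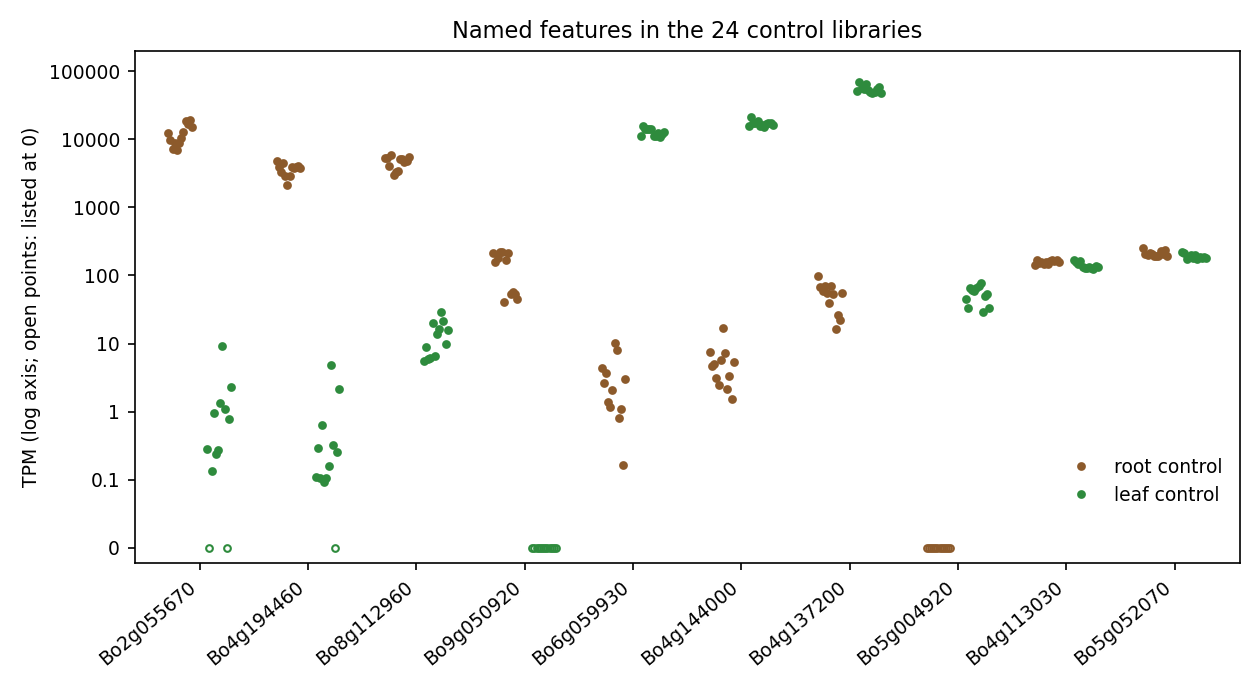
TPM on a log axis of 10 named features in 12 root control libraries (brown, left of each pair) and 12 leaf control libraries (green, right), ordered by day and letter within a tissue, with open points for values listed at 0. The first 8 features do not overlap between tissues, while Bo4g113030 and Bo5g052070 differ by less than 1.5-fold over all 24 libraries.

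Features listed at 0 in every library of 1 tissue and at 1 TPM or more in every library of the other numbered 327 for root and 68 for leaf. These are counts without a test, out of 30394 features tested. The limit of 1 TPM was not rescaled, so the balance of 327 to 68 is one of TPM as deposited. The mean level of the 327 in root had a median of 5.64 TPM and reached 136 TPM, and that of the 68 in leaf had a median of 6.12 TPM and reached 53.1 TPM. A count of 0 still allows a level: 3 reads in a library would correspond to a median of 0.213 TPM over the 327 features and 0.276 TPM over the 68, for counting error alone. Bo9g050920 had 40.5 TPM at its lowest, 163 at its median and 223 at its highest in root and was listed at 0 in all 12 leaf libraries, where 3 reads would be at most 0.309 TPM. Bo4g108680 had 78.9, 125 and 216 TPM in root and was listed at 0 in all 12 leaf libraries. Bo5g004920 was listed at 0 in all 12 root libraries and had 29.3, 55.5 and 76.6 TPM in leaf, and Bo00722s070 was listed at 0 in all 12 root libraries and had 10.01, 24.8 and 90.3 TPM in leaf.

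These lists shifted with the limit and with single libraries. With any value above 0 in place of 1 TPM in the tissue of presence they held 933 and 221 features, and with 10 TPM in its place 41 and 4. Without leaf libraries d of day 3 and d of day 6 the root list held 527 features, and without the 5 libraries that stood apart the lists held 385 and 84. In the starved plants, which played no part in the choice, 157 of the 327 were again listed at 0 in all 12 leaf libraries, and 124 of these were also at 1 TPM or more in all 12 root libraries. Of the 68, 23 were again at 0 in all 12 starved root libraries, and 16 of them were at 1 TPM or more in all 12 starved leaf libraries. None of the 327 or the 68 reached 1 TPM in a starved library of the tissue where controls were at 0, and the highest value there was 0.474 TPM in leaf and 0.609 TPM in root.

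Low levels of the other tissue's features varied between libraries. Over the 50 features of largest positive gap, the level in a leaf library as a share of the root mean had a median of 0 to 0.0368% in 10 of the 12 leaf libraries, 0.180% in library d of day 3 and 0.0697% in library d of day 6. Library d of day 3 listed 0 of the 50 at 0, while leaf library b of day 6 listed 28 of them at 0. Over the 50 features of largest negative gap, the level in a root library as a share of the leaf mean had a median of 0.0146 to 0.131%, highest in library c of day 3. Root libraries listed 0 to 5 of these 50 at 0. Both sets of 50 were chosen for their gap, and features of lower level were not looked at in this way. The cause of these low levels was not tested.

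**Figure D4:**
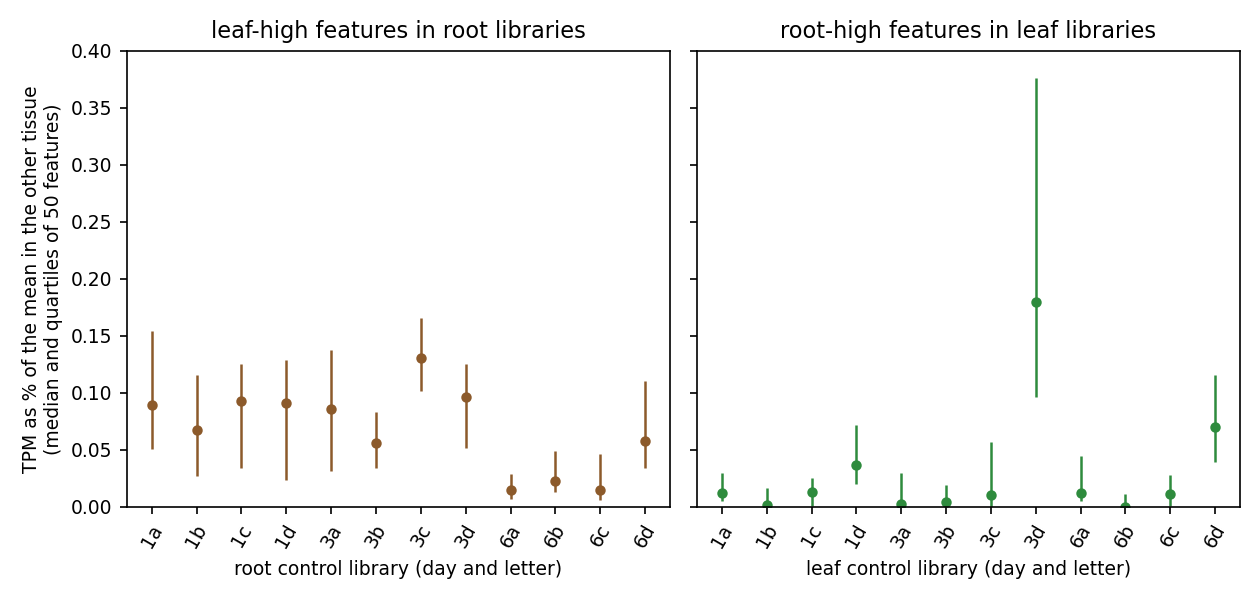
Level of 50 leaf-high features in each root control library (left) and of 50 root-high features in each leaf control library (right), as a percentage of the mean in the other tissue, with points for the median and lines for the quartiles. Leaf library d of day 3 stands highest, with a median of 0.180%.

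Few abundant features kept within 2-fold over all libraries in TPM as deposited. Of 578 features with a mean of at least 100 TPM in both tissues, 32 kept their highest within 2-fold of their lowest value over all 24 libraries and 223 within 3-fold. This measure also holds the spread within a tissue, and these counts were not made after rescaling. The steadiest was Bo4g113030, with 145, 159 and 171 TPM in root libraries against 123, 133 and 167 TPM in leaf libraries, a gap of 0.18 (SE 0.05, limma adjusted p = 0.00273). Next came Bo5g052070, with 191, 204 and 249 TPM in root libraries against 177, 188 and 218 TPM in leaf libraries, a gap of 0.14 (SE 0.05, limma adjusted p = 0.0207). The ranges of the tissues overlapped in both. After rescaling both were lower in root, with gaps of -0.86 and -0.91, so their steadiness holds for TPM only.

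Coding length and position in the identifier order were not used in choosing the features. The median coding length was 924 bases in the root-high class of 8-fold or more, 870 bases in the leaf-high class and 1033 bases over all tested features. In 10 classes of about equal size by coding length, root-high features made up 4.58% and leaf-high features 1.85% of the longest class, and 6.05 to 11.7% and 3.12 to 6.50% of the other 9. Split by the digit that follows Bo in the identifier, the share was 9.08 to 11.2% for root-high and 4.23 to 5.10% for leaf-high features, so no digit stood far from the rest.

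Features next to each other in identifier order shared a class more often than features farther apart. Of root-high features 14.6% were followed by another in the list of tested features, against 9.77% of all positions and 9.54% of root-high features when the partner was 100 positions away. For leaf-high features the shares were 7.04%, 4.59% and 4.21%. After rescaling they were 10.9% against 6.14% for root and 8.73% against 6.78% for leaf. Neighbours are not independent and near-identical copies can share reads, so these shares are a description. The longest run of root-high features was 5, Bo4g194930 to Bo4g194970, with gaps of 3.26 to 6.38. No run of leaf-high features exceeded 3.

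The leading leaf feature, Bo4g137200, stood near other leaf-high features of the same coding length. Bo4g137150, 4 tested positions before it, had a mean of 1.02 TPM in root and 5563 TPM in leaf (gap -11.55). Bo4g137140, chosen after its values were seen, came 5 positions before it and had 0.590 TPM in root and 3151 TPM in leaf (gap -11.00). The 3 tested features between Bo4g137150 and Bo4g137200, which are Bo4g137160, Bo4g137180 and Bo4g137190 and were also chosen after their values were seen, had gaps of 0.57, 0.33 and 1.57. All 3 leaf-high features had a coding length of 546 bases, as did Bo6g059930, a length shared by 82 tested features. Whether these features are near-identical copies was not tested. How the reads of such copies would be divided is not given in the sources used here, so the levels of single features are uncertain.

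On each day taken alone the difference had nearly the same extent. limma called 25446 features on day 1 (83.7%), 26447 on day 3 (87%) and 24597 on day 6 (80.9%), and the calls were 20115 higher (66.2%) and 5331 lower in root (17.5%) on day 1, 21272 (70%) and 5175 (17%) on day 3, and 18812 (61.9%) and 5785 (19%) on day 6. Without the 5 libraries that stood apart the counts were 26754, 27270 and 26372. With all libraries, 17873 were higher and 4668 lower in root on all 3 days. Of the 28219 called on at least 1 day, 151 were called on opposite sides on different days. Across features the gaps of day 1 and day 6 had a Pearson r of 0.972 over 30394 features, a description of features that share libraries within a day.

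The gap itself differed between day 6 and day 1 for 2711 features (8.92%), upward for 793 (2.61%) and downward for 1918 (6.31%). After rescaling the split was 1409 upward (4.64%) and 1702 downward (5.6%), and 703 upward and 1265 downward calls were shared by the scalings, with 0 in opposite directions. Without the 5 libraries that stood apart the counts were 1083 upward and 1994 downward, and without root library a of day 1 alone they were 1142 and 3697. With limma's array weights, which give libraries of larger spread less weight, the count was 13121. For root of day 6 the weights were 1.54 (a) and 1.75 (c), both among the 5, and 0.363 (b) and 0.339 (d). The remaining libraries of the 5 had weights of 0.096 to 0.202. Leaving out the 5 left only b and d for root of day 6. Leaf moved more than root in 528 of the 793 upward calls, in 1154 of the 1918 downward calls and in 17685 of the 30394 features tested. The leaf mean was lower on day 6 than on day 1 in 676 of the upward calls, 173 of the downward calls and 11519 of all features tested, counts that the direction of a call itself favours. Day 3 differed from day 1 for 280 features (0.921%), 98 upward (0.322%) and 182 downward (0.599%). Day 6 differed from day 3 for 1405 (4.62%), 422 upward (1.39%) and 983 downward (3.23%). After rescaling these were 108 (0.355%) and 231 (0.76%) for day 3 against day 1, and 749 (2.46%) and 646 (2.13%) for day 6 against day 3, where the majority of directions turned. These smaller counts depended on the procedure. Between days 3 and 1 the count was 2656 with array weights, 124 with a pseudocount of 0.1 and 77 with limma's voom model on the recovered reads, and between days 6 and 3 it was 10123, 788 and 607. Single libraries moved them by over 1.5 times too. Between days 3 and 1 the count was 158 without root library d of day 1, 186 and 117 without root libraries a and c of day 3, 164 and 122 without leaf libraries a and d of day 1, and 133 and 127 without leaf libraries a and c of day 3. Between days 6 and 3 it was 2224 without root library a of day 1, 912 without root library c of day 3 and 896 without leaf library b of day 6. Day of sampling and plant age rise together and cannot be told apart.

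Bo7g096650 had the largest upward shift between days 1 and 6. In root it averaged 55.1 ± 7.24, 112 ± 29.7 and 190 ± 55.7 TPM on days 1, 3 and 6, against 483 ± 147, 283 ± 94.5 and 117 ± 38.8 TPM in leaf (SD, n = 4). Its gap on day 6 minus that on day 1 was 3.76 (SE 0.38, limma adjusted p = 2.15e-06). The tissues were apart on day 1, with leaf above root, and overlapped on day 6, where the gap was 0.70 (limma adjusted p = 0.0203) as deposited and -0.18 (limma adjusted p = 0.66) after rescaling.

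Bo8g108830 averaged 0.916 ± 0.245, 1.19 ± 0.408 and 0.800 ± 0.158 TPM in root on the 3 days, against 22.6 ± 7.79, 10.8 ± 9.75 and 0.642 ± 0.456 TPM in leaf (SD, n = 4). The shift of its gap was 3.74 (SE 0.52, limma adjusted p = 9.06e-05). Root was near 1 TPM on each day, leaf was at that level on day 6 alone, and the tissues then overlapped. Bo3g047100 followed a like course between days 3 and 6, with 42.8 ± 4.11 and 35.0 ± 3.46 TPM in root on those days, against 66.4 ± 4.22 and 6.44 ± 2.67 TPM in leaf (SD, n = 4), a shift of 2.97 (SE 0.29, limma adjusted p = 8.09e-06). All root libraries were below all leaf libraries on day 3 and above them on day 6.

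Bo7g097500 had the largest downward shift, -3.93 from day 1 to day 6 (SE 0.36, limma adjusted p = 7.64e-07) and -2.45 from day 1 to day 3 (SE 0.36, limma adjusted p = 0.00228). It averaged 17.6 ± 6.47, 3.83 ± 1.65 and 1.52 ± 1.17 TPM in root, against 40.1 ± 5.63, 57.4 ± 3.82 and 81.6 ± 8.96 TPM in leaf on days 1, 3 and 6 (SD, n = 4). From day 1 to day 6 the mean was lower in root and higher in leaf, and root was below leaf in all libraries on each day. Bo9g081830 averaged 1.16 ± 1.68, 0.256 ± 0.143 and 0.246 ± 0.210 TPM in root, against 0.402 ± 0.374, 2.94 ± 0.934 and 9.39 ± 2.73 TPM in leaf (SD, n = 4), a shift of -3.44 from day 1 to day 6 (SE 0.44, limma adjusted p = 3.08e-05). On day 1 the root mean rested on library d, at 3.68 TPM, with the other 3 at 0.172 to 0.460 TPM, within the leaf range of 0.0768 to 0.888 TPM. The tissues overlapped on day 1 and did not on day 6.

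Bo7g114380 changed sides. It averaged 16.3 ± 3.40, 9.72 ± 1.94 and 9.15 ± 1.81 TPM in root, against 2.42 ± 0.399, 9.64 ± 4.11 and 19.6 ± 6.78 TPM in leaf on days 1, 3 and 6 (SD, n = 4). Its gap was 2.33 (limma adjusted p = 1.08e-08) on day 1 and -0.98 (limma adjusted p = 0.00113) on day 6, and 1.44 and -1.79 after rescaling. Its shift from day 1 to day 3 was -2.25 (SE 0.35, limma adjusted p = 0.00469). In all, 40 features with a called shift went from lower in root on day 1 to higher on day 6, and 75 the other way, with 115 and 103 after rescaling.

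**Figure D5:**
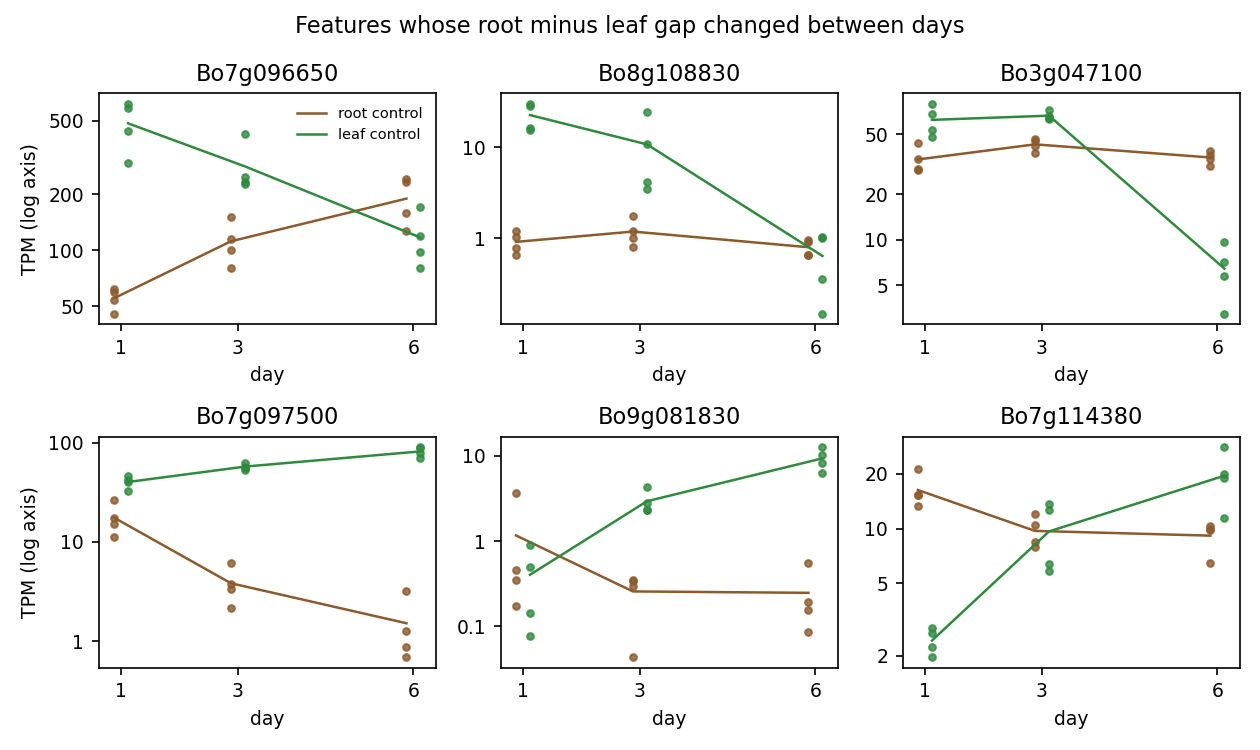
TPM on log axes of 6 features in root control libraries (brown) and leaf control libraries (green) on days 1, 3 and 6, with a point for each of 4 libraries and a line through the means. In the upper row the leaf mean is above the root mean on day 1 and below it on day 6, and in the lower row leaf is above root in all 4 libraries of day 6.

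Some named features of low level had their highest root values on day 3, and the tests are of the gap, not of root between days. Bo1g102190 had 0.823 to 1.78 TPM in root on day 1, 5.04 to 36.8 TPM on day 3 and 2.79 to 3.41 TPM on day 6, and was listed at 0 in 10 of 12 leaf libraries, a shift of 2.37 from day 1 to day 3 (SE 0.45, limma adjusted p = 0.0139). Bo3g168910 had 0.129 to 0.949 TPM in root on day 1, 3.79 to 36.4 TPM on day 3 and 0.0562 to 0.624 TPM on day 6, and at most 2.44 TPM in leaf. Its shifts were 2.60 from day 1 to day 3 (SE 0.60, limma adjusted p = 0.0383) and -2.79 from day 3 to day 6 (SE 0.60, limma adjusted p = 0.00913). Bo4g170690 had 2.12 to 7.66, 12.8 to 66.5 and 2.66 to 4.83 TPM in root on days 1, 3 and 6, against 1.19 to 2.84, 1.93 to 5.73 and 2.09 to 6.94 TPM in leaf. Its shift was -2.95 from day 3 to day 6 (SE 0.55, limma adjusted p = 0.00329) and 2.14 from day 1 to day 3, which was not called (SE 0.55, limma adjusted p = 0.062). Library d was the highest of the 4 root libraries of day 3 in all 3 of these features. The first shift of Bo3g168910 lost its call after rescaling, without a filter, with a pseudocount of 0.1, with voom, without the 5 libraries that stood apart and without any of several single libraries, with limma adjusted p of 0.0518 to 0.512 where it was lost. Its second shift lost its call with voom (limma adjusted p = 0.126) and without the 5 libraries (0.0705). That of Bo1g102190 lost its call with a pseudocount of 0.1 (limma adjusted p = 0.11) and with voom (0.568). Bo3g036660 had a shift of 2.41 from day 3 to day 6 (SE 0.61, limma adjusted p = 0.0253), with 14.9 to 37.2 TPM in root and 0.171 to 2.82 TPM in leaf on day 6, and lost its call without those 5 libraries, with a pseudocount of 0.1, with voom and without some single libraries, with limma adjusted p of 0.0524 to 0.0829 where it was lost.

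The starved plants gave the same contrast in libraries that the controls do not share. There limma called 27786 features (91.4%), 22081 higher (72.6%) and 5705 lower in root (18.8%). This split is for TPM as deposited, and in control plants the balance of directions rested on the scaling. Of the 21690 features higher in control roots, 21212 were higher, 438 not called and 40 lower in starved roots. Of the 5905 lower in control roots, 5429 were lower, 442 not called and 34 higher in starved roots. Of the 2959 features 8-fold higher in control roots 2956 were called higher in starved roots, and all 1399 of the leaf-high class were called lower there. The gap was at least 3 in starved plants for 2505 of the 2959, and at most -3 for 1269 of the 1399. The classes were chosen by the control gap, so these counts are a description.

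In starved plants the root feature of largest gap was Bo1g007900, with 4161, 6776 and 9244 TPM in starved roots against 0, 0.592 and 6.35 TPM in starved leaves, a gap of 11.81 (SE 0.25, limma adjusted p = 2.62e-24). Its control gap was 10.57, with 2023 to 5663 TPM in control roots and 0 to 23.8 TPM in control leaves, and the gaps did not differ at the threshold (1.24, SE 0.54, limma adjusted p = 0.137). Bo7g077600 came next, with a starved gap of 10.95 (SE 0.16, limma adjusted p = 1.01e-27). It was larger than the control gap by 1.12 (limma adjusted p = 0.0148), but not called after rescaling (limma adjusted p = 0.0539). For the leading control root features the gap was lower in starved plants, Bo2g055670 by 2.04 (-2.04, limma adjusted p = 0.00325) and Bo4g194460 by 1.31 (-1.31, limma adjusted p = 0.00464). Both stayed called after rescaling. The largest negative gaps were again those of Bo6g059930 (-11.60, SE 0.45, limma adjusted p = 1.47e-18) and Bo4g144000 (-11.47, SE 0.44, limma adjusted p = 1.19e-18).

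The gap differed between starved and control plants for 4102 features (13.5%), 2243 upward (7.38%) and 1859 downward (6.12%) in starved plants. After rescaling these were 2003 upward and 2222 downward. The libraries that stood apart were sought among the control libraries only. Starved leaf library d of day 1 had 19659 Bo features at 1 TPM or more. The next lowest starved leaf library, a of day 3, had 22167, and control leaf libraries had 21165 to 23627. Starved root library d of day 3 had 13819069 reads, and the next fewest were 17497615 in c of day 3. No count for starved plants without these libraries is given here. Bo1g021930 had 6.85, 114 and 320 TPM in starved roots and 1.44, 3.26 and 5.63 TPM in control roots, and it was listed at 0 in all 12 starved leaf libraries and at no more than 0.140 TPM in control leaves. Its gap was larger by 4.54 in starved plants (SE 0.36, limma adjusted p = 2.22e-13). Bo7g115930 had a gap larger by 3.78 (SE 0.29, limma adjusted p = 9.34e-14), with 24.6 to 73.5 TPM in starved roots, 0.361 to 13.4 TPM in control roots and under 1 TPM in every leaf library of both treatments.

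Bo3g033000 had 2.71, 8.39 and 65.2 TPM in starved roots and 82.2, 173 and 251 TPM in control roots, and at most 0.193 TPM in starved and 0.0850 TPM in control leaves. The gap was lower by 3.89 in starved plants (-3.89, SE 0.31, limma adjusted p = 2.22e-13) and remained positive. Bo9g133270 had 7.79 to 29.2 TPM in starved roots against 2.97 to 21.7 TPM in starved leaves, and 48.1 to 124 TPM in control roots against 0.588 to 13.6 TPM in control leaves. Its gap was 0.62 in starved and 4.08 in control plants, a difference of -3.46 (SE 0.32, limma adjusted p = 3.11e-11), and the tissues overlapped in starved plants alone. The starved gap was called as deposited (limma adjusted p = 0.00522) and was -0.37 (limma adjusted p = 0.094) after rescaling, so its direction rests on the scaling.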

How the data were processed

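RNA of roots and leaves was sequenced as total RNA on a DNBseq platform, per the labels. The authors deposited 1 table of TPM for 60586 features in 48 libraries. Tools named in the submitters' processing notes, without their roles, are STAR 2.7.10a, cutadapt 4.1, FastQC 0.11.9 and DESeq2. Which genome build, annotation and read counter were used is not given in the sources used here. TPM shares shift when a few features take more of a library.

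Whole reads were recovered from the steps of the TPM values for 44911 of the 44911 features above 0 in at least 2 libraries, with 100% of their nonzero values whole to within 0.05 reads (at most 0.000104 away). Feature lengths followed from the same steps. Of those of Bo features 99.8% were multiples of 3 (median 954 bases), and they are called coding lengths. The 1361 features with ENSRNA identifiers were left out of the tests.

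Tests were limma 3.58.1 (lmFit, eBayes with a trend) in R 4.3.3 on log2(TPM + 1), with Benjamini-Hochberg adjustment over all 30394 features. Fold changes on that scale understate those of low features. The all-days comparison had day as a block in the 24 control libraries; days and their differences came from 1 fit with a term per tissue and day, and starved against control gaps from a fit of 48. Library measures were tested by permutation with scipy 1.17.1 in Python 3.11.15 (numpy 2.4.6, pandas 2.3.3). The recovery of reads and the limma fits were tested on simulated data. For limma these had the same mean profile in root and leaf apart from the changes put in, and no libraries of low quality. They therefore do not cover the shift in scaling between the tissues or the libraries that stood apart.

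Without gene names, features were named by rule, per comparison the 2 largest positive and 2 largest negative among called features with a mean of at least 1 TPM in the higher group and no overlap (allowed for differences of gaps), the 2 most abundant per tissue, the 2 of highest mean per tissue among those listed at 0 in the other, and the 2 steadiest of those with at least 100 TPM in both tissues. The features, comparisons and rules were chosen with earlier results of these data known. Libraries of 1 group always differed by more than sampling noise. Letters were not taken as pairs. Alternatives were a pseudocount of 0.1, no filter, rescaling, array weights, voom on recovered reads, the letter as a block and leaving out libraries; leaving out the 5 that stood apart, and leaf libraries d of days 3 and 6, was chosen after seeing the data.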

Additional observations from a re-analysis of the deposited data

Results flagged for a closer look

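Within groups of 4 libraries, single libraries far from the other 3 were looked for in 208 groups of values and found in 30, where chance flags about 1 group in 20. Among features high in root, leaf library d of day 3 stood out for Bo2g055670 (9.33 TPM), Bo4g194460 (4.83 TPM), Bo1g007900 (23.8 TPM) and Bo7g077600 (6.26 TPM). Leaf library d of day 6 stood out for Bo4g194460 (2.17 TPM), Bo1g007900 (18.8 TPM) and Bo7g077600 (2.09 TPM). Among library measures, root library a of day 1 stood out in features at 1 TPM or more (25817), in the share of the 1000 most abundant (50.2%) and in the features holding 50% of TPM (989). Leaf library a of day 3 stood out in the share of the 10 (19.3%), 100 (45.4%) and 1000 (72.5%) most abundant and in the features holding 50% of TPM (149).

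Other root libraries that stood out were d of day 1 for Bo9g081830 (3.68 TPM) and Bo3g168910 (0.949 TPM), d of day 3 for Bo9g081830 (0.0430 TPM), a of day 3 for Bo5g052070 (204 TPM), a of day 6 for Bo7g114380 (6.44 TPM) and d of day 6 for Bo4g170690 (4.83 TPM). Other leaf libraries of day 1 were b for Bo8g112960 (8.97 TPM) and Bo1g021930 (0 TPM), and d for Bo7g115930 (0.633 TPM) and Bo3g033000 (0.0276 TPM). On day 3 they were a for Bo7g096650 (424 TPM), b for Bo1g102190 (0.157 TPM), c for Bo3g168910 (2.44 TPM) and d for Bo1g021930 (0.140 TPM). On day 6 they were a for Bo1g102190 (0.377 TPM) and b for Bo1g021930 (0.0466 TPM).

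Differences of the root minus leaf gap between days, each tested as an interaction, were called for 2711 features between days 6 and 1, 280 between days 3 and 1 and 1405 between days 6 and 3. On the log2 scale they were 3.76 for Bo7g096650, 3.74 for Bo8g108830, -3.93 for Bo7g097500 and -3.44 for Bo9g081830 between days 6 and 1. Between days 3 and 1 they were 2.60 for Bo3g168910, 2.37 for Bo1g102190, -2.45 for Bo7g097500 and -2.25 for Bo7g114380. Between days 6 and 3 they were 2.97 for Bo3g047100, 2.41 for Bo3g036660, -2.95 for Bo4g170690 and -2.79 for Bo3g168910. The gap in starved minus that in control plants differed for 4102 features, among them Bo1g021930 (4.54), Bo7g115930 (3.78), Bo3g033000 (-3.89) and Bo9g133270 (-3.46). The ENSRNA features, outside the comparisons, summed to 563 to 757 TPM in root libraries and to 738 to 4165 TPM in leaf libraries, with the highest value in leaf library a of day 3.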

How the results depend on the processing

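The all-days count kept within 1.5 times 27595 under every alternative run except the thresholds, which left 18299 features with a gap of 1 or more in size and 4358 with 3 or more. Leaving out single libraries gave 27419 to 27905 features over all days, 24597 to 26321 for day 1, 25667 to 26894 for day 3 and 23824 to 25295 for day 6. For the gaps between days it gave 2055 to 4839 (days 6 and 1), 117 to 316 (days 3 and 1) and 896 to 2224 (days 6 and 3), where the highest of the first and last was without root library a of day 1, and the lowest were without leaf library b of day 6, root library c of day 3 and leaf library b of day 6. Counts of called gaps moved most. Array weights gave 13121 for days 6 and 1, 2656 for days 3 and 1 and 10123 for days 6 and 3. Leaving out the 3 libraries of low estimated quality gave 4861 (days 6 and 1) and 2265 (days 6 and 3). A pseudocount of 0.1 gave 124 (days 3 and 1) and 788 (days 6 and 3), and voom on recovered reads 77 and 607. Without the 5 libraries that stood apart the counts were 3077, 402 and 1493. Features listed at 0 in 1 tissue numbered 933, 41 and 1054 for root and 221, 4 and 205 for leaf with presence above 0, with 10 TPM or more, and with absence under 0.1 TPM, and 527 for root without leaf libraries d of days 3 and 6. Leaving out single libraries gave 327 to 435 for root, highest without leaf library d of day 3, and 68 to 79 for leaf. Of 960 values of the 36 named results under alternatives, 928 kept direction and call, 32 lost the call and 0 turned. The 36 were chosen as the largest of their own comparisons, a choice that favours a kept direction. The steady features were not among them. Their all-days gaps turned on rescaling, from 0.18 to -0.86 for Bo4g113030 and from 0.14 to -0.91 for Bo5g052070. The cause of these changes was not tested.

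Deviations from the group means were correlated between the root and leaf library of the same day and letter, as a check of pairing, which gave -0.574 to 0.391. Of the 12 correlations 6 were over 0.1, on no day all 4, and for 5 of the 12 root libraries the leaf library of the same letter gave the highest correlation of the day. By these values the letters were not treated as pairs, which does not show that they are unpaired. With the replicate block, counts of called gaps were 1802 between days 6 and 1, 34 between days 3 and 1 and 527 between days 6 and 3, and no count for a single tissue contrast moved by more than 1.5 times.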
